A study of Homo sapiens with 9 samples.

Results

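The genes described here are those of the unfolded protein response and the integrated stress response, chosen as a fixed list of 37 gene symbols and looked up by symbol in the table of gene counts. Of the 37 genes, 36 were among the 14943 genes of the table, and DERL3 was not analysed here. The list holds 16 genes of the ATF6/XBP1 chaperone branch, 6 measured genes of ER-associated degradation (ERAD), 5 stress sensors and transcription factors, and 9 genes of the PERK/ATF4 branch. SH-Sy5y, a human neuroblastoma cell line, was transfected for 48 h by lipofection, and polyadenylated RNA was sequenced from 3 groups of 3 libraries. Control cells (Ctrl.) received 40 pmol of a negative control oligonucleotide and 0 pmol of a miR-1229-3p mimic. Cells of the 10 nM group received 20 pmol of mimic with 20 pmol of the control oligonucleotide, and cells of the 20 nM group 40 pmol of mimic with 0 pmol of it. Between 20 nM and Ctrl., therefore, the mimic and the control oligonucleotide are exchanged for each other. RNA from a pair of wells was pooled where the study could do so. The libraries were labelled as separate replicates without saying that each came from its own culture, so p-values measure the spread between these libraries, which may be technical.

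Proteins that enter the endoplasmic reticulum (ER) are folded there by chaperones, and unfolded protein in the ER is sensed by IRE1 (gene ERN1), PERK (EIF2AK3) and ATF6. ATF6 and the spliced form of XBP1 raise genes of folding and degradation in the ER. PERK phosphorylates the initiation factor eIF2, which slows protein synthesis in general but lets ATF4 be translated. Other eIF2 kinases feed into ATF4 without ER stress, and ATF4 raises genes of amino acid supply as well as DDIT3 (CHOP). The 2 branches can therefore move apart, and the comparison asked whether they did so with increasing amounts of mimic.

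Mature miR-1229-3p is shown because a microRNA can lower mRNAs with a match to its seed (bases 2 to 8, in capitals) in the 3′ untranslated region (UTR). In RefSeq (GRCh38.p14) its 23 bases lie on the minus strand at chr5:179798278-179798300.
hsa-miR-1229-3p: cUCUCACCacugcccucccacag

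The longest annotated 3′ UTR of each gene was searched for seed matches: an 8-mer (GGTGAGAA), a 7-mer within it (GGTGAGA or else GTGAGAA) or the 6-mer GTGAGA. Of the 36 genes, 8 held a 7-mer, 0 an 8-mer, 8 a 6-mer as the strongest match and 20 none. Among 13777 genes with a 3′ UTR of at least 50 bases, 22.6% held a 7-mer or an 8-mer, which was close to the 8 of 36 seen here. The genes with a 7-mer were 3 of 16 chaperone genes (HSPA5, PDIA6, ERO1B), 1 of 6 ERAD genes (EDEM1), 3 of 5 sensors and factors (ATF6, EIF2AK3, CREB3L2) and 1 of 9 PERK/ATF4 genes (ATF3). The matches of the sensors ATF6 and EIF2AK3 and of the chaperones HSPA5 and PDIA6 are shown, since sensors act upstream of the other genes and HSPA5 and PDIA6 are among the most abundant members. Each line is the sense strand from 5′ to 3′ (GRCh38.p14), with the 7-mer in capitals, and coordinates are those of the 7-mer.
ATF6, chr1:161962393-161962399, plus strand: gagatgctGGTGAGActgc
EIF2AK3, chr2:88557418-88557424, minus strand: tatatataGTGAGAActaa
HSPA5, chr9:125236224-125236230, minus strand: taatgtttGTGAGAAgctt
PDIA6, chr2:10783663-10783669, minus strand: cgggctcaGTGAGAActga

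Promoters (250 bases before to 50 after the RefSeq start) were searched on both strands for the ER stress element, to which ATF6 binds, in its exact form of CCAAT and CCACG with 9 bases between them. Of the chaperone genes, 7 of the 15 with a promoter in the RefSeq set held it (HSPA5, HSP90B1, CALR, CANX, PDIA6, CRELD2, ERO1B), as did XBP1, while 0 of 9 PERK/ATF4 promoters and 0 of 5 ERAD promoters did. The share was 0.0769% of all 35116 promoters and, counted per gene as for the list, 0.143% of the 11209 measured genes with a promoter. The elements of genes described below are shown on the strand that reads CCAAT first, with both parts in capitals.
HSPA5, chr9:125241391-125241409, gene on the minus strand: ttcaCCAATcggcggcctCCACGacgg
CANX, chr5:179698778-179698796, gene on the plus strand: ccggCCAATcttcacactCCACGaaga
CRELD2, chr22:49918554-49918572, gene on the plus strand: tggcCCAATccgagttcgCCACGagag
ERO1B, chr1:236282183-236282201, gene on the minus strand: gcggCCAATgaggcgggaCCACGcggg

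The core of the amino acid response element, TGATGNAA, which is bound by ATF4 with a partner, was found in 3 of 9 PERK/ATF4 genes (ASNS, ATF3, CHAC1) and in HERPUD1 and CREB3L2. Its share was 3.62% of all promoters and, counted per gene, 2.77% of the 11209 measured genes with a promoter. The element of ASNS is shown because ASNS was one of the genes that fell, with the core in capitals.
ASNS, chr7:97872469-97872476, gene on the minus strand: ggcaTGATGAAActtc
The core TGACGTG of another unfolded protein response element was found in 1 gene of the list (HYOU1). Its share was 1.97% of all promoters and, counted per gene as for the list, 3.22% of the 11209 measured genes with a promoter. A match describes the letters of the window and does not show that a factor was bound there.

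The libraries held 17.4 to 28.2 M estimated counts, and the lowest count of any listed gene in a library was 74. The library 20 nM replicate 3 stood apart: the surrogate variable of the fit by group, which stands for unexplained variation, was 0.907 in it and between -0.242 and 0.0602 in the other 8 libraries. Of the 2 variables of the dose trend, the first was likewise highest in that library (0.896) and the second in 10 nM replicate 2 (0.827). Of the noradrenergic neuroblastoma markers 12 of 12 were in the table, with summed levels of 6351 to 7954 CPM (counts scaled to the library total) over the 9 libraries. Of the blood markers 0 of 6 were in the table, of the epithelial ones 2 of 5 (0.914 to 2.37 CPM summed), and of the mesenchymal ones 10 of 12. The summed mesenchymal markers stood at 678 to 792 CPM in Ctrl. and at 811 to 997 CPM at 20 nM. They did not move together. TWIST1, the most abundant, stood at 385.6 to 430.0 CPM in Ctrl. and at 445.8, 468.5 and 691.6 CPM at 20 nM (replicates 1 to 3). Mean CPM at 20 nM was also above that of Ctrl. for NOTCH2, CD44, FOSL1 and FOSL2. It was below that of Ctrl. for FN1, COL1A1, COL3A1, SNAI2 and YAP1. The part of these markers in the results was not tested. Fewer cells expressing a gene and less of its RNA per cell cannot be told apart in these bulk libraries.

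The genes of the list covered a wide range of levels. Per kilobase of canonical transcript, the mean control level was highest for the ER lectin CALR (308 CPM per kb), followed by PDIA6 (234), HSP90B1 (202), ATF4 (107) and HSPA5 (104). The lowest were ERO1B (1.53), ERN1 (2.65), CHAC1 (3.04) and ATF3 (3.82 CPM per kb). Targets of ATF4 ranged from CHAC1, DDIT3 (6.67) and TRIB3 (11.6) to DDIT4 (24.2) and ASNS (35.4 CPM per kb) in control cells. Genes outside this branch, such as EIF2AK3 and DERL2 (both 10.4 CPM per kb), were also low. The mRNA of ATF4 itself was among the most abundant of the list. Means of neighbours in this order, such as ATF4 and HSPA5, were not tested against each other.

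Genes of the chaperone branch rose with the amount of mimic, while genes of the PERK/ATF4 branch changed in both directions. In the dose trend, the log2 change per 20 nM over all 9 libraries, 9 of 16 chaperone genes were significantly higher and 0 lower, and of 9 PERK/ATF4 genes 1 was higher and 2 were lower (edgeR quasi-likelihood test with surrogate variables, Benjamini-Hochberg adjusted p under 0.05). Over the 36 genes, 12 were higher and 2 lower, where 9.84% of all genes tested were higher and 7.69% lower. At 20 nM against Ctrl., 9 were higher and 3 lower (all genes: 7.8% and 6.08%). The higher genes were 6 chaperone genes, DERL1, EIF2AK3 and DDIT4, and the lower ones ATF4, ASNS and PPP1R15A. At 10 nM against Ctrl., 0 were higher and 0 lower (all genes: 0.221% and 0.428%). At an unadjusted p under 0.05, 10 were higher and 3 lower (all genes: 1081 and 1003 of 14943). DESeq2 called 2 at 10 nM (share of all genes not given). At 20 nM against 10 nM, 4 were higher (CANX, PDIA4, DERL1, DDIT4) and 0 lower (all genes: 1.91% and 0.883%). Without 20 nM replicate 2 the 12 calls at 20 nM became 7 (7 higher, 0 lower), where 4.24% of all genes were higher and 2.94% lower. The 4 calls at 20 nM against 10 nM became 0 without 20 nM replicate 1, 1 without 20 nM replicate 2, 10 nM replicate 1 or 10 nM replicate 3, and 2 without 10 nM replicate 2. The shares of all genes called in those fits are not given. With the mimic coded only as present or absent, 1 of the 36 genes was called (PDIA3, 0.22, adjusted p = 0.0496), against 1.1% of all genes. The comparisons with Ctrl. and the dose trend share libraries and are not independent of each other.

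**Figure D1:**
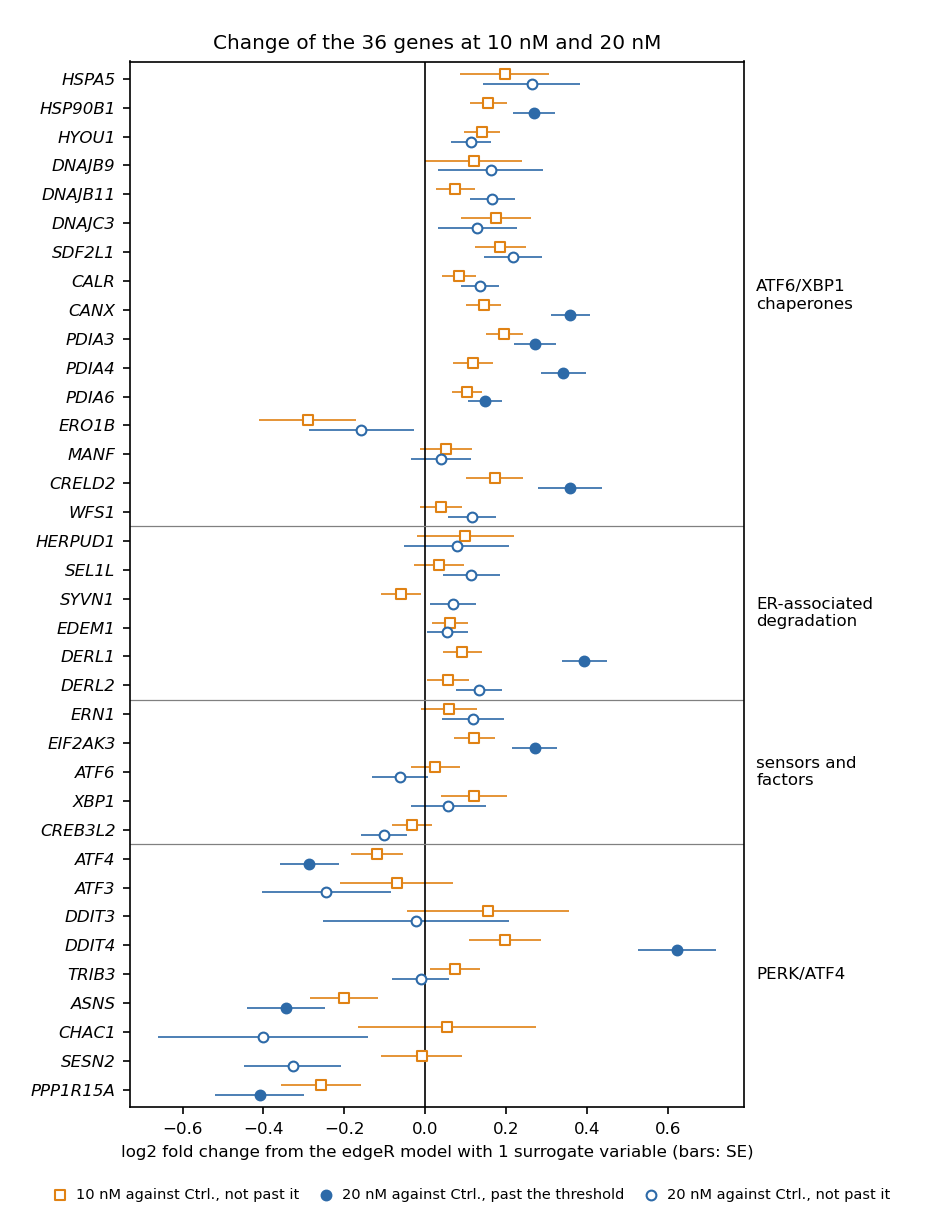
Log2 fold change (horizontal axis, bars are SE) of each of the 36 genes at 10 nM (squares) and 20 nM (circles) against Ctrl., filled where the adjusted p was under 0.05 (edgeR fit with 1 surrogate variable). At 20 nM, 15 of 16 chaperone genes lay right of 0, where 7465 of all 14943 genes were positive. Of the PERK/ATF4 genes 8 of 9 lay left of 0, TRIB3 (-0.01) and DDIT3 (-0.02) only just, with DDIT4 as the exception. In CPM, which carry no surrogate correction, the mean at 20 nM was above Ctrl. for DDIT4, ATF3, DDIT3, TRIB3 and CHAC1. It was below Ctrl. for ATF4, ASNS, SESN2 and PPP1R15A.

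The median log2 fold change of the 16 chaperone genes was 0.13 at 10 nM, 0.16 at 20 nM and 0.19 in the dose trend, where the median over all genes was 0.00 in each. The corresponding medians of the 9 PERK/ATF4 genes were -0.01, -0.29 and -0.22. The ERAD genes (0.06, 0.10 and 0.08) and the sensors and factors (0.06, 0.06 and 0.09) lay in between. The negative medians of the PERK/ATF4 branch depended on the surrogate variables: at 20 nM the median was 0.07 with no surrogate variable, 0.07 with a block of replicate numbers instead and 0.01 with the block and a surrogate variable. When 1 library was left out it ran from -0.32 to -0.14 at 20 nM, the value nearest 0 being that without Ctrl. replicate 3. The chaperone median stayed positive in these fits, at 0.26, 0.25 and 0.23.

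The replicate numbers in the sample titles were taken to pair the libraries across groups. The titles do not state such a pairing. Same-numbered libraries deviated together from their group means, with correlations of 0.14 to 0.32, and those of different-numbered libraries are not given. With the replicate number as a block and 1 surrogate variable, the members called became 14 at 10 nM (13 higher), 22 at 20 nM (20 higher), 23 in the dose trend (20 higher) and 10 at 20 nM against 10 nM (10 higher). In that fit 10.5%, 28.4%, 30.7% and 10.2% of all genes were called, of which the higher ones made up 5.43%, 15.2%, 16.5% and 5.89% of all genes. In that fit 11 of 16 chaperone genes were higher at 10 nM and 13 at 20 nM. The 14 genes called at 10 nM were HSPA5, HSP90B1, HYOU1, DNAJC3, SDF2L1, CALR, CANX, PDIA3, PDIA4, PDIA6, CRELD2, XBP1 and DDIT4, which were higher, and ASNS, which was lower. Those gained at 20 nM were HSPA5, HYOU1, DNAJB11, DNAJC3, SDF2L1, CALR, MANF, HERPUD1, SEL1L, DERL2 and XBP1, and PPP1R15A was lost. In the dose trend HSPA5, HYOU1, DNAJC3, MANF, WFS1, DERL2, XBP1, CREB3L2 and DDIT3 were gained, and at 20 nM against 10 nM HSPA5, HSP90B1, DNAJB11, CALR, CRELD2 and SYVN1. With the block and no surrogate variable the numbers were 0, 14 (13 higher), 14 (13 higher) and 2, where 0.0201%, 13.6%, 16.4% and 0.83% of all genes were called. That fit gained HSPA5, HYOU1, MANF and XBP1 at 20 nM and in the dose trend, and DNAJB11, SDF2L1 and CALR at 20 nM. It lost HSP90B1, PDIA3, EIF2AK3 and ATF4 at 20 nM and in the dose trend, PPP1R15A at 20 nM, and CANX and DERL1 at 20 nM against 10 nM. Without 20 nM replicate 3 and with the surrogate variables counted again, a choice made after seeing the data, they were 12, 20, 17 and 7, against 8.82%, 29.2%, 18.5% and 10% of all genes. The number at 10 nM was 0 with 0, 1 or 2 surrogate variables and no block, and 8 with 3, where the share of all genes is not given.

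Levels were also compared without a model, within replicate numbers. The branch level of a library, taken as the mean over genes of log2 CPM minus the mean of the 3 controls, was 0.04, 0.14 and 0.21 in the 10 nM libraries and 0.17, 0.25 and 0.42 in the 20 nM libraries (replicates 1 to 3) for the chaperone genes. Its control values were -0.07, 0.01 and 0.06, so the chaperone level increased at each step within each replicate number. For the PERK/ATF4 genes the level was -0.15, -0.03 and 0.18 in Ctrl., -0.15, -0.02 and 0.28 at 10 nM, and -0.13, -0.01 and 0.35 at 20 nM. Here the libraries separated by replicate number and not by group. The chaperone level minus the PERK/ATF4 level averaged 0.00 ± 0.11 over the controls, 0.09 ± 0.14 over the 10 nM and 0.21 ± 0.13 over the 20 nM libraries (SD, n = 3), and it was higher at 20 nM than in the same-numbered control in all 3 replicate numbers.

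**Figure D2:**
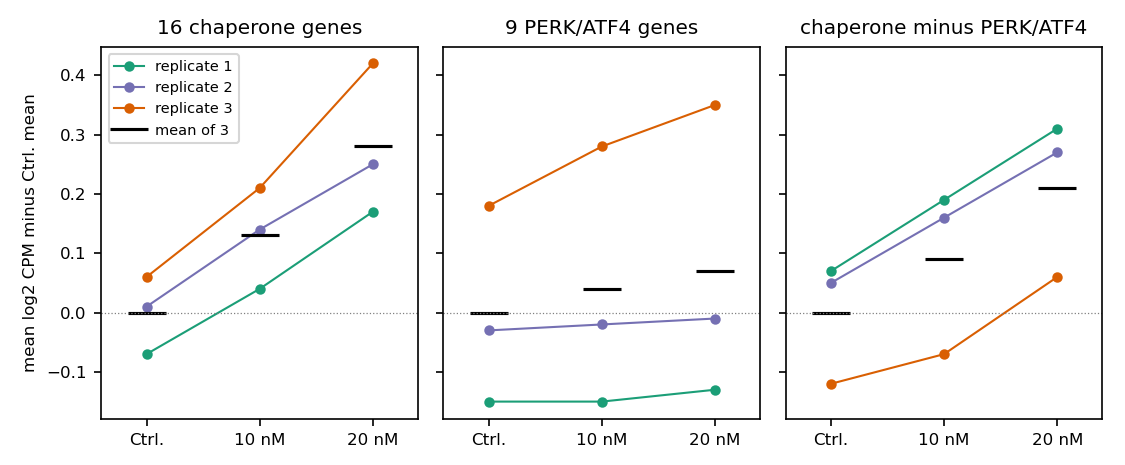
Mean log2 CPM relative to the mean of the controls (vertical axis) for the 16 chaperone genes, the 9 PERK/ATF4 genes and their difference in each group, with a line for each replicate number and a black bar for the mean of 3 libraries. The chaperone lines climb in all 3 replicate numbers, from between -0.07 and 0.06 in Ctrl. to between 0.17 and 0.42 at 20 nM, while replicate 3 holds the highest PERK/ATF4 level in every group.

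The difference between replicate numbers was large for these genes. In 16 of the 36 genes (44.4%) replicate 3 was the highest of its group in all 3 groups, against 10.7% of all genes, and the 16 included 8 chaperone genes and 6 of 9 PERK/ATF4 genes (ATF4, ATF3, DDIT3, CHAC1, SESN2, PPP1R15A). Within replicate numbers, the CPM rose from Ctrl. over 10 nM to 20 nM in all 3 numbers for 12 of the 36 genes, against 7.26% of all genes, and fell in all 3 for 0, against 5.98%. The 12 were HSPA5, HYOU1, DNAJB11, CALR, CANX, PDIA4, PDIA6, MANF, CRELD2, DERL2, XBP1 and DDIT4, of which 9 are chaperone genes. Between groups, all 3 libraries of 20 nM lay above all 3 controls in 15 of the 36 genes (all genes: 15.2%) and below them in 4 (ERO1B, ATF6, CREB3L2, ASNS; all genes: 13.7%). At 10 nM it was 10 above (all genes: 10.1%) and 1 below (ERO1B; all genes: 9.9%). The library 20 nM replicate 3 was the highest of all 9 in 19 of the 36 genes, against 30.8% of all genes.

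**Figure D3:**
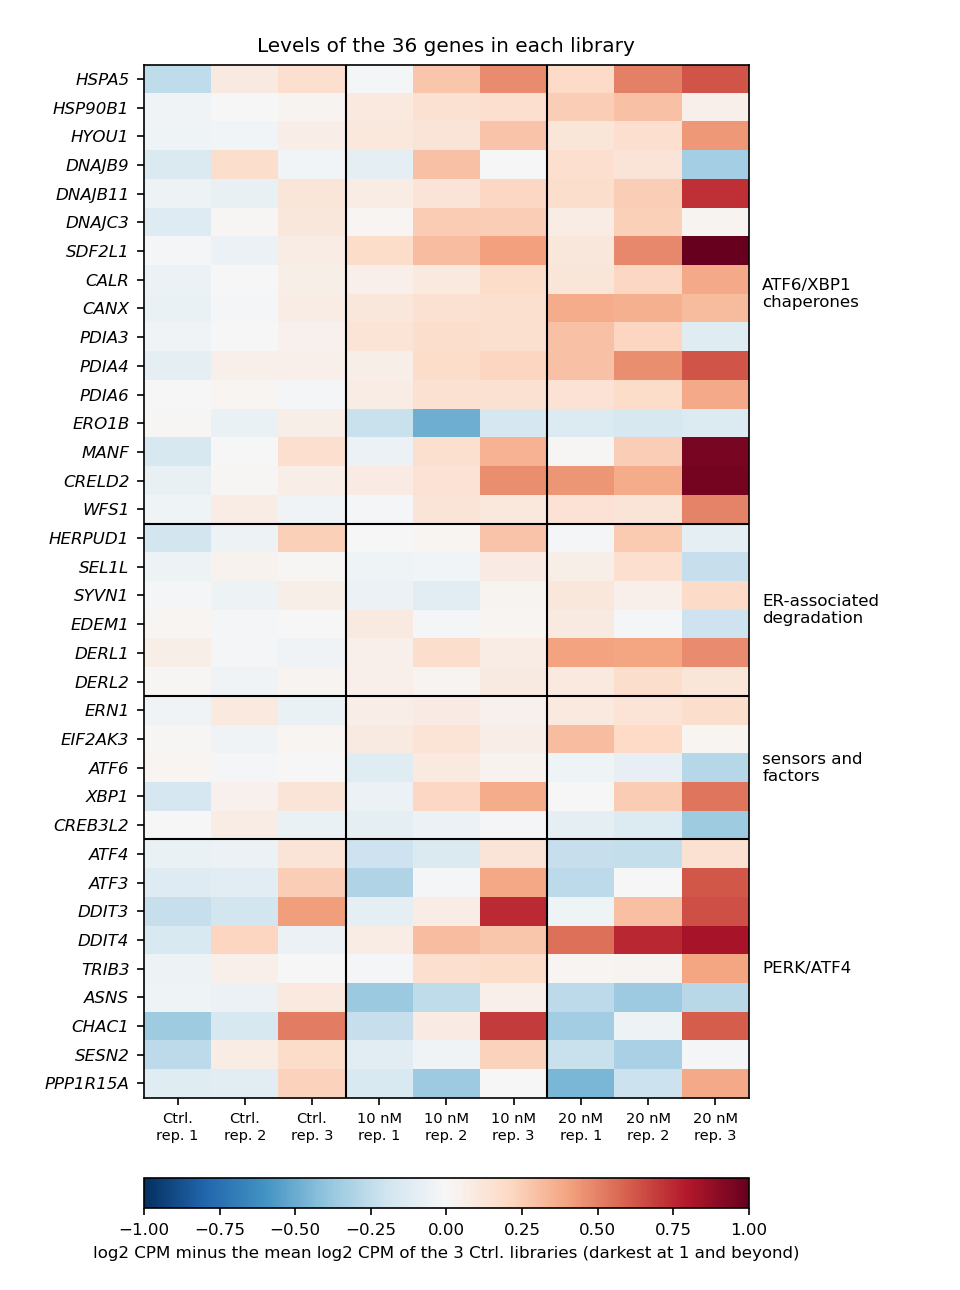
Log2 CPM of each of the 36 genes (rows, by branch) in each of the 9 libraries (columns) minus the mean of the 3 controls, red for higher and blue for lower. Most chaperone rows redden from Ctrl. to 20 nM, most strongly SDF2L1, MANF and CRELD2 in 20 nM replicate 3. ERO1B is blue in the mimic libraries, and DNAJB9 and PDIA3 are lowest in 20 nM replicate 3. ATF3, DDIT3 and CHAC1 are red in replicate 3 of every group.

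HSPA5 (BiP), the main Hsp70 chaperone of the ER and the usual marker of ER stress, stood at 337.9, 429.0 and 454.5 CPM in Ctrl. (replicates 1 to 3), 397.6, 490.0 and 560.2 CPM at 10 nM, and 461.0, 571.3 and 624.8 CPM at 20 nM. All 20 nM libraries lay above all controls, and the order Ctrl., 10 nM, 20 nM held within each replicate number, but the spread between replicate numbers was as wide as the step between groups. Its log2 fold change at 20 nM was 0.26 (SE 0.12, adjusted p = 0.181) and in the dose trend 0.28 (SE 0.095, adjusted p = 0.0569), neither past the threshold. The dose trend passed without 20 nM replicate 1 (0.48, adjusted p = 0.00446), without 20 nM replicate 3 (0.26, adjusted p = 0.0348) and without 10 nM replicate 2 or 3. With the replicate block and a surrogate variable it was 0.24 at 10 nM (adjusted p = 1.16e-05), 0.45 at 20 nM (adjusted p = 4.38e-09) and 0.45 in the dose trend (adjusted p = 4.61e-07). With the block alone it was also called, at 0.44 both at 20 nM (adjusted p = 0.00137) and in the dose trend (adjusted p = 0.000754). HSPA5, whose 3′ UTR holds a 7-mer match shown above, thus passed the test at 20 nM in both paired fits.

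HSP90B1 (GRP94), the Hsp90 chaperone of the ER, was at 548.5, 564.7 and 573.4 CPM in Ctrl., 600.8, 623.2 and 630.7 CPM at 10 nM, and 667.4, 688.8 and 583.4 CPM at 20 nM. Both mimic groups lay above the controls, with 20 nM replicate 3 the lowest of the mimic libraries. HSP90B1 rose by 0.27 on the log2 scale at 20 nM (SE 0.052, adjusted p = 0.00435) and by 0.23 in the dose trend (SE 0.045, adjusted p = 0.00344). With the block alone HSP90B1 missed the threshold at 20 nM (0.20, adjusted p = 0.0697) and in the dose trend (0.20, adjusted p = 0.0549). It also did so with no surrogate variable (adjusted p = 0.107 and 0.083), and at 20 nM without 20 nM replicate 2 (0.22, adjusted p = 0.0555).

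CANX and CALR are the lectin chaperones that bind newly made glycoproteins, calnexin in the membrane and calreticulin in the lumen. CANX was at 390.4, 405.5 and 428.8 CPM in Ctrl., 441.8, 452.9 and 456.8 CPM at 10 nM, and 528.5, 523.2 and 508.4 CPM at 20 nM. The 3 groups did not overlap, and CANX was the chaperone gene with the smallest adjusted p. It rose by 0.36 at 20 nM (SE 0.049, adjusted p = 0.000521), by 0.35 in the dose trend (SE 0.047, adjusted p = 0.000222), and from 10 nM to 20 nM. The rise at 20 nM was called in every alternative fit, while that from 10 nM to 20 nM was lost with the block alone (0.21, adjusted p = 0.131) and with no surrogate variable (adjusted p = 0.235), and without 20 nM replicate 1 or 2 or any of the 10 nM libraries (0.19 to 0.22, adjusted p from 0.0726 to 0.208). CALR was at 561.4, 584.8 and 610.6 CPM in Ctrl., 606.0, 625.9 and 664.1 CPM at 10 nM, and 635.5, 675.5 and 761.0 CPM at 20 nM. All 20 nM libraries lay above the controls. CALR rose by 0.17 in the dose trend (SE 0.042, adjusted p = 0.0156), whereas its 0.13 at 20 nM did not pass (adjusted p = 0.0787) and did with the block (0.19, adjusted p = 4.34e-05, with a surrogate variable, and 0.24, adjusted p = 0.0178, without). The dose trend of CALR was lost without Ctrl. replicate 1 (adjusted p = 0.0597) or 20 nM replicate 2 (adjusted p = 0.0752), with no surrogate variable (adjusted p = 0.061) and with only genes of a mean of at least 1 CPM (adjusted p = 0.0641).

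The protein disulfide isomerases PDIA3, PDIA4 and PDIA6 form and exchange disulfide bonds, PDIA3 together with the lectin chaperones. PDIA4 was at 257.5, 285.5 and 284.8 CPM in Ctrl., 286.7, 312.9 and 319.5 CPM at 10 nM, and 337.5, 379.5 and 427.1 CPM at 20 nM. The groups did not overlap, and PDIA4 rose by 0.34 at 20 nM (SE 0.056, adjusted p = 0.00173) and 0.38 in the dose trend (SE 0.053, adjusted p = 0.000365), both in every fit that left out 1 library. Its rise from 10 nM to 20 nM held in 0 of those 9 fits (adjusted p from 0.0529 to 0.206) and was lost with no surrogate variable (adjusted p = 0.228), with relative log expression scaling (adjusted p = 0.0551), with library totals alone (adjusted p = 0.071) and with only the compared groups fitted. PDIA6 was at 532.2, 539.7 and 529.8 CPM in Ctrl., 563.2, 593.6 and 591.9 CPM at 10 nM, and 590.5, 606.8 and 693.9 CPM at 20 nM. PDIA6 rose by 0.15 at 20 nM (SE 0.042, adjusted p = 0.0355) and by 0.17 in the dose trend (SE 0.039, adjusted p = 0.00759). The call of PDIA6 at 20 nM was lost without any of the controls, 20 nM replicate 1 or 2 or 10 nM replicate 3 (0.13 to 0.18, adjusted p from 0.0534 to 0.147) and with no surrogate variable (adjusted p = 0.0643), and its dose trend held in 9 of 9 fits that left out 1 library. PDIA3 was at 300.7, 307.7 and 317.5 CPM in Ctrl., 340.1, 349.2 and 344.0 CPM at 10 nM, and 378.9, 358.5 and 283.6 CPM at 20 nM. In PDIA3 the library 20 nM replicate 3 was the lowest of all 9, while its other mimic libraries were all above the controls. In the model PDIA3 rose by 0.27 at 20 nM (SE 0.052, adjusted p = 0.0043) and by 0.20 in the dose trend (SE 0.047, adjusted p = 0.00923). Without 20 nM replicate 3 the dose trend was 0.25 (adjusted p = 0.00099), and without 20 nM replicate 1 it was 0.10 (adjusted p = 0.163). With the block alone PDIA3 missed the threshold at 20 nM (0.13, adjusted p = 0.34) and in the dose trend (adjusted p = 0.335), as it did with no surrogate variable (adjusted p = 0.374 and 0.364).

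CRELD2, SDF2L1, MANF and DNAJB11 are small luminal proteins that respond to ER stress, SDF2L1 and DNAJB11 as partners of HSPA5 and MANF as a secreted factor. CRELD2 was at 42.52, 45.03 and 46.73 CPM in Ctrl., 47.33, 49.32 and 61.83 CPM at 10 nM, and 60.76, 57.97 and 86.83 CPM at 20 nM. It rose by 0.36 at 20 nM (SE 0.079, adjusted p = 0.0101) and by 0.45 in the dose trend (SE 0.070, adjusted p = 0.000712), which without 20 nM replicate 3 was 0.37 (adjusted p = 0.000799). SDF2L1 was at 29.86, 29.03 and 31.88 CPM in Ctrl., 34.34, 37.38 and 40.23 CPM at 10 nM, and 32.77, 42.10 and 75.12 CPM at 20 nM. In SDF2L1 all mimic libraries lay above all controls, and 20 nM replicate 3 lay far above the other 8 libraries. The dose trend of SDF2L1 was 0.36 (SE 0.071, adjusted p = 0.00344) and without 20 nM replicate 3 0.26 (adjusted p = 0.0392). DNAJB11 was at 63.05, 62.22 and 71.27 CPM in Ctrl., 68.80, 71.33 and 75.61 CPM at 10 nM, and 73.95, 77.63 and 108.7 CPM at 20 nM, and rose by 0.25 in the dose trend (SE 0.050, adjusted p = 0.00393), or by 0.19 without 20 nM replicate 3 (adjusted p = 0.0321). At 20 nM neither SDF2L1 (0.22, adjusted p = 0.0613) nor DNAJB11 (0.17, adjusted p = 0.0637) passed, and both did with the block alone (adjusted p = 0.0427 and 0.0224). With no surrogate variable the dose trends of SDF2L1 (adjusted p = 0.0602) and DNAJB11 (adjusted p = 0.0599) missed the threshold. MANF had a dose trend of 0.15 that did not pass (adjusted p = 0.108). It passed with the block (0.32, adjusted p = 0.000144, with a surrogate variable, and 0.42, adjusted p = 0.0265, without), with 3 surrogate variables (0.20, adjusted p = 0.0187), without 20 nM replicate 1 (0.44, adjusted p = 0.00379) and without 10 nM replicate 2 (0.19, adjusted p = 0.0268).

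The other chaperone genes did not pass the threshold at 20 nM or in the dose trend. HYOU1, an exchange factor of HSPA5, had a dose trend of 0.15 (adjusted p = 0.0576) and passed with the block (0.23, adjusted p = 0.000677, with a surrogate variable, and 0.24, adjusted p = 0.0187, without). The ER membrane protein WFS1 had a dose trend of 0.16 (adjusted p = 0.0617), and passed with the block and a surrogate variable (0.20, adjusted p = 0.00739). The co-chaperones DNAJB9 and DNAJC3 had dose trends of 0.04 (adjusted p = 0.804) and 0.08 (adjusted p = 0.55), and DNAJC3 passed with the block and a surrogate variable (0.16, adjusted p = 0.0483). ERO1B, an oxidase that recharges disulfide isomerases, was the chaperone gene with negative values: its mimic libraries (5.461 to 6.969 CPM) all lay below its controls (7.298 to 7.969 CPM). The log2 change of ERO1B was -0.29 at 10 nM (adjusted p = 0.297) and -0.16 at 20 nM (adjusted p = 0.483).

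**Figure D4:**
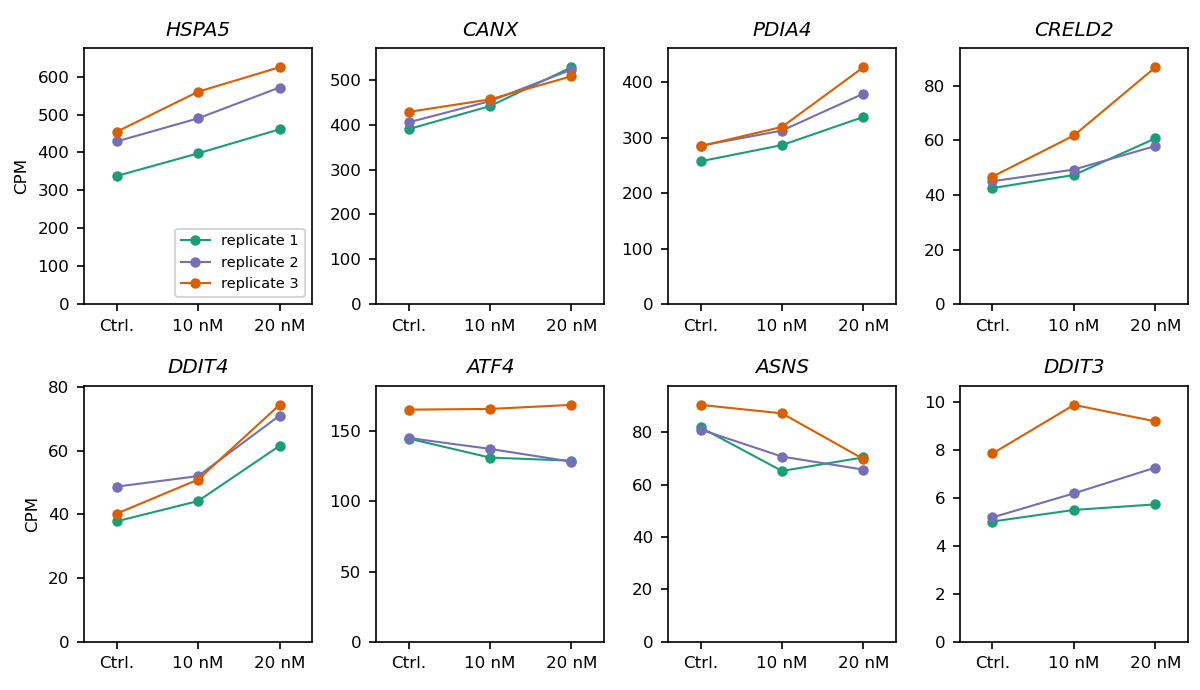
CPM (vertical axes, from 0) of 8 genes in Ctrl., 10 nM and 20 nM, with a line for each replicate number. HSPA5, CANX, PDIA4, CRELD2 and DDIT4 climb in every replicate number, ASNS ends below its control in all 3, and in ATF4 and DDIT3 the replicate 3 line lies above the other lines throughout.

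ERAD pulls misfolded proteins out of the ER for destruction by the proteasome. DERL1, a channel protein of this path, was at 62.87, 59.47 and 58.76 CPM in Ctrl., 62.55, 68.07 and 63.66 CPM at 10 nM, and 79.81, 79.13 and 83.67 CPM at 20 nM. The 20 nM libraries lay well above the other 6, and DERL1 rose by 0.39 at 20 nM (SE 0.055, adjusted p = 0.00057) and by 0.41 in the dose trend (SE 0.061, adjusted p = 0.000496). From 10 nM to 20 nM DERL1 also rose, a call that was lost with the block alone (0.32, adjusted p = 0.0584), with no surrogate variable (adjusted p = 0.0632) and without 20 nM replicate 1 (adjusted p = 0.0749). The paralogue DERL2 had a dose trend of 0.13 (adjusted p = 0.108), with its 20 nM libraries (46.58 to 49.16 CPM) above its controls (42.28 to 44.31 CPM), and passed with the block and a surrogate variable (0.14, adjusted p = 0.0462). The ubiquitin ligase SYVN1, its adaptor SEL1L, the mannosidase-like EDEM1 and HERPUD1 had dose trends between 0.02 and 0.10 and did not pass. HERPUD1 (0.25, adjusted p = 0.00715) and SEL1L (0.14, adjusted p = 0.0303) passed at 20 nM with the block and a surrogate variable. SYVN1 rose from 10 nM to 20 nM in the same fit (0.16, adjusted p = 0.0251).

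Among the sensors, EIF2AK3 (PERK) rose while ERN1 (IRE1) and ATF6 did not pass the test. EIF2AK3 was at 47.53, 46.06 and 47.74 CPM in Ctrl., 50.17, 51.91 and 49.26 CPM at 10 nM, and 58.42, 54.06 and 47.81 CPM at 20 nM. In EIF2AK3 all mimic libraries lay above all controls, 20 nM replicate 3 only just. EIF2AK3 rose by 0.27 at 20 nM (SE 0.055, adjusted p = 0.00635) and by 0.23 in the dose trend (SE 0.053, adjusted p = 0.00823), and without 20 nM replicate 3 by 0.26 in the dose trend (adjusted p = 0.00556). With the block alone it missed the threshold at 20 nM (0.18, adjusted p = 0.127) and in the dose trend (adjusted p = 0.0982), and it also did without 20 nM replicate 1 (0.18 at 20 nM, adjusted p = 0.114, and 0.13 in the dose trend, adjusted p = 0.137) and with no surrogate variable (adjusted p = 0.178 and 0.142). ERN1 was at 20.43, 22.44 and 20.00 CPM in Ctrl., 21.87, 22.13 and 21.54 CPM at 10 nM, and 22.39, 23.05 and 23.66 CPM at 20 nM. Its controls overlapped both mimic groups, while its 20 nM libraries lay above its 10 nM libraries. The dose trend of ERN1 was 0.12 (adjusted p = 0.277). The mRNA of ATF6 had a dose trend of -0.12 (adjusted p = 0.171), with 20 nM libraries (48.58 to 57.42 CPM) below the controls (58.28 to 60.01 CPM).

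XBP1, whose mRNA is spliced by IRE1 into the form that encodes the active factor, was at 59.69, 69.14 and 73.40 CPM in Ctrl., 64.63, 77.58 and 86.92 CPM at 10 nM, and 67.25, 80.12 and 97.57 CPM at 20 nM. Gene counts do not separate the spliced from the unspliced form. The level rose with the amount of mimic within each replicate number, and the groups overlapped across numbers. XBP1 did not pass the test at 20 nM (0.06, SE 0.093, adjusted p = 0.745) or in the dose trend (0.09, adjusted p = 0.415). With the block it did, at 0.27 at 20 nM with the block alone (adjusted p = 0.0255) and at 0.20 with a surrogate variable (adjusted p = 0.00285), and its dose trend passed without 20 nM replicate 1 (0.32, adjusted p = 0.0187). CREB3L2, an ER-bound factor related to ATF6, had a dose trend of -0.14 (adjusted p = 0.0736) and 20 nM libraries (67.79 to 81.60 CPM) below its controls (82.63 to 91.15 CPM). It passed in the dose trend with the block and a surrogate variable (-0.15, adjusted p = 0.0177).

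In the PERK/ATF4 branch, ATF4, ASNS and PPP1R15A were lower at 20 nM and DDIT4 was higher. ATF4, the transcription factor of the branch, was at 144.9, 145.3 and 165.5 CPM in Ctrl., 131.3, 137.5 and 166.0 CPM at 10 nM, and 129.1, 128.4 and 168.9 CPM at 20 nM. Replicate numbers 1 and 2 were lower with mimic and replicate number 3 was not, so the groups overlapped. In the model ATF4 fell by 0.29 at 20 nM (SE 0.074, adjusted p = 0.023) and by 0.22 in the dose trend (SE 0.066, adjusted p = 0.0332). Without 20 nM replicate 3 the value at 20 nM was -0.24 (adjusted p = 0.00328), whereas with the block alone it was -0.10 (adjusted p = 0.259) and with no surrogate variable -0.10 (adjusted p = 0.652). It also missed the threshold at 20 nM without 20 nM replicate 1, 20 nM replicate 2 or Ctrl. replicate 3 (-0.24 to -0.28, adjusted p from 0.0577 to 0.0876). The dose trend of ATF4 missed it without those or 10 nM replicate 1 (adjusted p from 0.0555 to 0.118), with the block alone (-0.10, adjusted p = 0.229), with no surrogate variable (adjusted p = 0.623) and with only genes of a mean of at least 1 CPM (-0.21, adjusted p = 0.0812).

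ASNS, asparagine synthetase and a target of ATF4, was at 81.85, 81.04 and 90.45 CPM in Ctrl., 65.21, 70.71 and 87.21 CPM at 10 nM, and 70.39, 65.71 and 69.77 CPM at 20 nM. All 20 nM libraries, replicate 3 included, lay below all controls. ASNS fell by 0.34 at 20 nM (SE 0.097, adjusted p = 0.0333) and by 0.33 in the dose trend (SE 0.088, adjusted p = 0.0189), and it remained past the threshold with the block at 20 nM (-0.22, adjusted p = 0.00697, with a surrogate variable). It missed the threshold with no surrogate variable (-0.30 at 20 nM, adjusted p = 0.0923) and without 20 nM replicate 2 (-0.33, adjusted p = 0.12) or Ctrl. replicate 3 (-0.29, adjusted p = 0.105), and with 2 surrogate variables (-0.26, adjusted p = 0.0517). The dose trend of ASNS missed it with no surrogate variable (adjusted p = 0.0666), with only genes of a mean of at least 1 CPM (-0.29, adjusted p = 0.0698), without 20 nM replicate 2 (adjusted p = 0.0591) and without Ctrl. replicate 3 (adjusted p = 0.0771). PPP1R15A (GADD34), which directs the phosphatase that reverses eIF2 phosphorylation, was at 23.50, 23.84 and 30.01 CPM in Ctrl., 23.02, 19.87 and 25.55 CPM at 10 nM, and 18.66, 22.11 and 33.39 CPM at 20 nM. In PPP1R15A the 20 nM libraries held both the lowest and the highest of the 9 values. The fall of PPP1R15A at 20 nM (-0.41, SE 0.11, adjusted p = 0.0307) was -0.24 with the block and a surrogate variable (adjusted p = 0.0517), -0.08 with the block alone (adjusted p = 0.669) and -0.06 with no surrogate variable (adjusted p = 0.867). It also missed the threshold without 20 nM replicate 1 (-0.24, adjusted p = 0.26), 20 nM replicate 2 (-0.47, adjusted p = 0.0648) or Ctrl. replicate 3 (-0.31, adjusted p = 0.0964), and with 2 surrogate variables (-0.31, adjusted p = 0.0609).

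DDIT4 (REDD1), an inhibitor of mTORC1 that ATF4 and other stress factors can raise, had the largest fold change of the list. It was at 37.81, 48.71 and 40.22 CPM in Ctrl., 44.18, 52.02 and 50.92 CPM at 10 nM, and 61.52, 71.00 and 74.39 CPM at 20 nM. All 20 nM libraries lay above the other 6. DDIT4 rose by 0.62 at 20 nM (SE 0.097, adjusted p = 0.00123), a fold of 1.54, and by 0.64 in the dose trend (SE 0.095, adjusted p = 0.000496), and the call at 20 nM held in every alternative fit. From 10 nM to 20 nM it also rose, a call that was lost with no surrogate variable (adjusted p = 0.0996) and without 10 nM replicate 1 or 3 or 20 nM replicate 1 or 2 (0.34 to 0.53, adjusted p from 0.0578 to 0.144). Leaving DDIT4 out, the level of the other 8 genes of the branch averaged 0.00 ± 0.19 over the controls, 0.02 ± 0.24 over the 10 nM and -0.01 ± 0.27 over the 20 nM libraries (SD, n = 3).

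The remaining genes of the branch did not pass. DDIT3 (CHOP), the factor linked to cell death under lasting stress, was at 5.018, 5.190 and 7.857 CPM in Ctrl., 5.501, 6.193 and 9.887 CPM at 10 nM, and 5.733, 7.268 and 9.197 CPM at 20 nM. The highest library of each group was replicate 3, and the groups overlapped. DDIT3 had a dose trend of 0.04 (SE 0.21, adjusted p = 0.917), and 0.34 with the block and a surrogate variable (adjusted p = 0.0391). ATF3, another induced factor, was at 6.715, 6.812 and 8.714 CPM in Ctrl., 5.989, 7.319 and 9.601 CPM at 10 nM, and 6.152, 7.397 and 11.30 CPM at 20 nM. ATF3 overlapped between groups in the same manner, with a dose trend of -0.14 (SE 0.14, adjusted p = 0.537). The pseudokinase TRIB3 (0.02, adjusted p = 0.837), the glutathione-degrading enzyme CHAC1 (-0.31, SE 0.23, adjusted p = 0.409) and SESN2 (-0.30, adjusted p = 0.0852), an inhibitor of mTORC1, did not pass in the dose trend. SESN2 did without 20 nM replicate 3 (-0.32, adjusted p = 0.0381), as did PPP1R15A (-0.36, adjusted p = 0.0187).

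Other genes of the same pathways were taken from 2 further lists. Of 57 measured genes of ER folding, degradation and translocation, 11 were higher and 1 lower at 20 nM, and 13 higher and 1 lower in the dose trend, with a median log2 change of 0.05 in the dose trend. These were 19.3% higher and 1.75% lower at 20 nM (all genes: 7.8% and 6.08%), and 22.8% and 1.75% in the dose trend (all genes: 9.84% and 7.69%). By adjusted p in the dose trend, the leading higher genes were TXNDC5 and PDIA5, both disulfide isomerases, and KDELR2, a receptor that returns chaperones to the ER. TXNDC5 was at 98.60, 117.9 and 109.5 CPM in Ctrl., 123.8, 136.8 and 125.4 CPM at 10 nM, and 179.9, 186.0 and 171.2 CPM at 20 nM. Its rise of 0.73 in the dose trend exceeded the estimate for every gene of the main list (SE 0.075, adjusted p = 4.03e-05). KDELR2 rose by 0.49 (SE 0.064, adjusted p = 0.000193) and PDIA5 by 0.61 (SE 0.094, adjusted p = 0.000639). SEC61G, a subunit of the translocation channel, fell by 0.33 (SE 0.067, adjusted p = 0.00374).

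Of 47 measured other genes of the integrated stress response, 4 were higher and 4 lower at 20 nM, and 7 higher and 4 lower in the dose trend, with a median of 0.07 in the dose trend. At 20 nM that was 8.51% in either direction, near the 7.8% and 6.08% of all genes, and in the dose trend 14.9% higher and 8.51% lower (all genes: 9.84% and 7.69%). At 10 nM 1 was higher (SESN3), which is 2.13% against 0.221% of all genes, and 0 were lower (all genes: 0.428%). In the dose trend, the leading higher genes were the sestrin SESN3 (0.40, SE 0.064, adjusted p = 0.000876), the lipoprotein receptor VLDLR (0.58, SE 0.11, adjusted p = 0.00204) and BBC3 (PUMA), a cell death gene (0.45, SE 0.091, adjusted p = 0.00379). The lower ones were the alanine transaminase GPT2 (-0.23, SE 0.056, adjusted p = 0.0128), the amino acid transporter SLC1A4 (-0.40, SE 0.11, adjusted p = 0.022) and CEBPG, a partner of ATF4 (-0.19, SE 0.055, adjusted p = 0.0332). In 20 nM replicate 3, GPT2 had its highest level of the 9 libraries (83.34 CPM, against 57.50 and 62.75 CPM in the other 20 nM libraries and 71.27 to 73.04 CPM in Ctrl.) and SESN3 its lowest (46.27 CPM, against 74.36 and 59.48 CPM, and 48.37 to 50.33 CPM in Ctrl.). With the block alone GPT2 (-0.10, adjusted p = 0.502), SESN3 (0.26, adjusted p = 0.118) and CEBPG (-0.18, adjusted p = 0.0611) did not pass in the dose trend, and with no surrogate variable those genes and SLC1A4 did not. Without 20 nM replicate 3 GPT2 (-0.28, adjusted p = 0.00258) and SESN3 (0.46, adjusted p = 0.000512) were called. Of the enzymes of serine synthesis, picked here after their values were seen, PSAT1 was higher and PHGDH lower at 20 nM, and PSPH was not called. In the dose trend PSAT1 was higher, and PHGDH and PSPH were not called. Values of these enzymes in the alternative fits are not given.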

How the data were processed

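Polyadenylated RNA of 9 libraries was measured (3 groups of 3, groups and replicate numbers from the sample titles). Per the labels and the study's methods, the authors mapped reads with salmon (GRCh38.p13, Ensembl annotation), aggregated them by gene symbol and filtered low genes. The deposited values are estimated counts (88.8% not whole), which were rounded here. CANX, HYOU1 and SESN2 carry alternate identifiers and were matched by symbol. The authors' deposited tables of comparisons (log2 fold change, p-value) and of surrogate-corrected log2 values were not used.

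Counts of 14943 genes were scaled by TMM and tested with edgeR 4.0.16 (quasi-likelihood test, R 4.3.3, Benjamini-Hochberg over all genes, threshold 0.05). Surrogate variables came from sva 3.50.0, with 1 in the fit by group and 2 in the dose trend. The SE was derived from the fold change and its F-statistic. CPM are TMM-scaled and carry no surrogate correction. Same-numbered libraries correlated at 0.14 to 0.32 in their deviations from group means (13683 genes, all 9 pairs above 0.1), so the titles' numbers were taken to pair them. Branch levels used a pseudocount of 0.5 CPM. UTRs came from GENCODE 44, promoters and the microRNA from RefSeq (GRCh38.p14). The fits were tried on simulated counts with 200 changed genes, 1 surrogate variable, no replicate pairing and no outlying library. Such counts cannot show how the calls depend on the pairing or on 20 nM replicate 3. Members, lists and tests were chosen with earlier results of these data known. Values are given for every gene called at 20 nM or in the dose trend, for HSPA5, XBP1, ATF4, DDIT3, ATF3, EIF2AK3 and ERN1, and for the 3 genes with the smallest adjusted p per direction in each further list. Alternatives were scaling, filter, tool, number of surrogate variables, block, rounding, groups fitted and left-out libraries.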

Additional observations from a re-analysis of the deposited data

How the results depend on the processing

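Scaling (relative log expression, library totals alone), rounding and filtering left the number of members called within 1.5 times of that reported, but scaling lost PDIA4 at 20 nM against 10 nM, and a minimum mean of 1 CPM lost CALR, ATF4 and ASNS in the dose trend (11 higher, 0 lower). Larger moves came with the settings below, and the cause was not tested. At 10 nM, where 0 were called, the number was 2 with DESeq2, 1 with the likelihood-ratio test, 8 with 3 surrogate variables, 14 with the replicate block and a surrogate variable, 3 with only the compared groups fitted and 12 without 20 nM replicate 3 with surrogate variables counted again (added after seeing the data). At 20 nM (12) it was 5 with no surrogate variable, 22 with the block and a surrogate variable, 20 in that added fit and 7 to 16 when 1 library was left out. At 20 nM against 10 nM (4) it was 0 with no surrogate variable, 8 with 3, 2 with the block alone, 10 with the block and a surrogate variable, 7 in the added fit and 0 to 3 when 1 library was left out. In the dose trend (14) it was 6 with no surrogate variable, 23 with the block and a surrogate variable, 1 with the mimic coded as present or absent, and 11 to 21 when 1 library was left out (21 without 10 nM replicate 2). The share of all genes called also moved between fits. It is given above for the block fits, the added fit, the mimic as present or absent and, at 20 nM, without 20 nM replicate 2. For the other settings it is not given here. The member counts of those settings alone therefore do not tell a move of the members from a move of all genes.

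With no surrogate variable the chaperone median was 0.26 at 20 nM and 0.17 at 20 nM against 10 nM. The PERK/ATF4 median reversed at 20 nM (0.07 with no surrogate variable, 0.07 with the block alone, 0.01 with the block and a surrogate variable) and in the dose trend (0.07 in each of those 3 fits), where it ran from -0.27 to 0.06 when 1 library was left out, with 0.06 without 20 nM replicate 1. The replicate block changed no other call of a member than those named in the report above. CHAC1 and DDIT3, both under 10 CPM, had an SE of 0.23 and 0.21 in the dose trend, so a change of the size of the chaperone median (0.19) was not detectable in them.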
